A study of Mus musculus with 36 samples.

Results

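The comparison described here set mouse CD8 T cells carrying a short hairpin RNA (shRNA) against Arhgap5 beside CD8 T cells carrying a control hairpin against LacZ, a bacterial gene that mouse cells lack. It used 6 of the 36 arrays of the study, chosen by their labels alone: the 3 Arhgap5 arrays and the 3 LacZ arrays labelled tumor. The labels described all groups alike, as OT-I derived T cells, whose receptor recognises a peptide of ovalbumin. The cells were transduced with 1 hairpin each and transferred into mice bearing B16 melanoma, then purified from tumor or spleen. The other 4 hairpins targeted Ppp2r2d, Egr2, Ptpn2 and Alk, and every hairpin had 3 arrays under each tissue label. The 5 mouse genes had been picked for their effect on T cell numbers in tumor relative to spleen. The labels gave neither the sex nor the age of the mice, nor whether the 3 arrays of a group came from separate mice, so the p-values below measure only the spread between arrays, which may be technical.

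Arhgap5 encodes p190B, a GTPase-activating protein: it speeds the hydrolysis of GTP by small GTPases and so switches them off. It is known for roles in the actin cytoskeleton, cell adhesion and migration.

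Values are log2 intensities, so a difference of 1 is a 2-fold change, and they ran from -4.51 to 9.29 over the 36 arrays. The 6 arrays had medians of -0.46 to -0.31. T cell identity genes were high and alike in both groups, which the cell label asks for: Cd3e averaged 6.51 ± 0.14 and 6.55 ± 0.10 (SD, n = 3 arrays each), and Cd8a 6.41 ± 0.17 and 6.40 ± 0.10. The tissue label went against its markers. Pdcd1, which encodes the PD-1 receptor of chronically stimulated T cells, lay at -1.76 to -0.02 in these 6 arrays and at 6.15 to 7.06 in the 6 matching arrays labelled spleen. Tyrp1, a pigment gene of melanocytes and B16 cells, lay at -2.71 to -2.05 and at 4.63 to 5.67. The arrays are therefore called labelled tumor and labelled spleen throughout.

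The targeted transcript was examined first. Arhgap5 read 2.01, 1.36 and 1.17 in LacZ arrays 1 to 3 and 1.44, 1.25 and 0.44 in Arhgap5 arrays 1 to 3. The groups overlapped, and the difference of -0.47 ± 0.35 (SE) missed the threshold (limma, adjusted p = 0.9999). All 4 probe sets of the gene gave a negative difference, from -0.57 to -0.11, and none passed (adjusted p = 0.9997 over all probe sets). Arhgap5 array 3 held the lowest value of the 6 and LacZ array 1 the highest. A knockdown was therefore not detectable in these arrays. Across the other hairpins the transcript ranged from 0.45 to 1.14 in the Alk arrays to 1.39 to 2.26 in the Ptpn2 arrays.

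Against LacZ, 67 of 18193 genes differed at an adjusted p under 0.05, 0.368% of those tested. Of these, 13 rose in the Arhgap5 arrays (0.0715%) and 54 fell (0.297%). At an unadjusted p under 0.05, 828 of the 18193 genes differed (4.55%). The rises were led by genes of the Y chromosome, and 25 of the 54 falls were genes of mitosis and DNA replication. In all 67 genes the 3 arrays of one group lay wholly above the 3 of the other, which was also true of 1158 of the 18193 genes (6.37%). After quantile normalization 169 genes passed (0.929%), 52 higher (0.286%) and 117 lower (0.643%), and 66 of the first 67 were among them with the same direction. With the spread taken from the 6 arrays alone 14 genes passed, and with the 18 arrays labelled tumor 20 passed. Single arrays moved the count: 28, 194 and 36 genes passed without LacZ array 1, 2 or 3, and 27 and 38 without Arhgap5 array 1 or 3. Of the 67 genes, 22 passed whichever of the 6 arrays was left out.

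**Figure D1:**
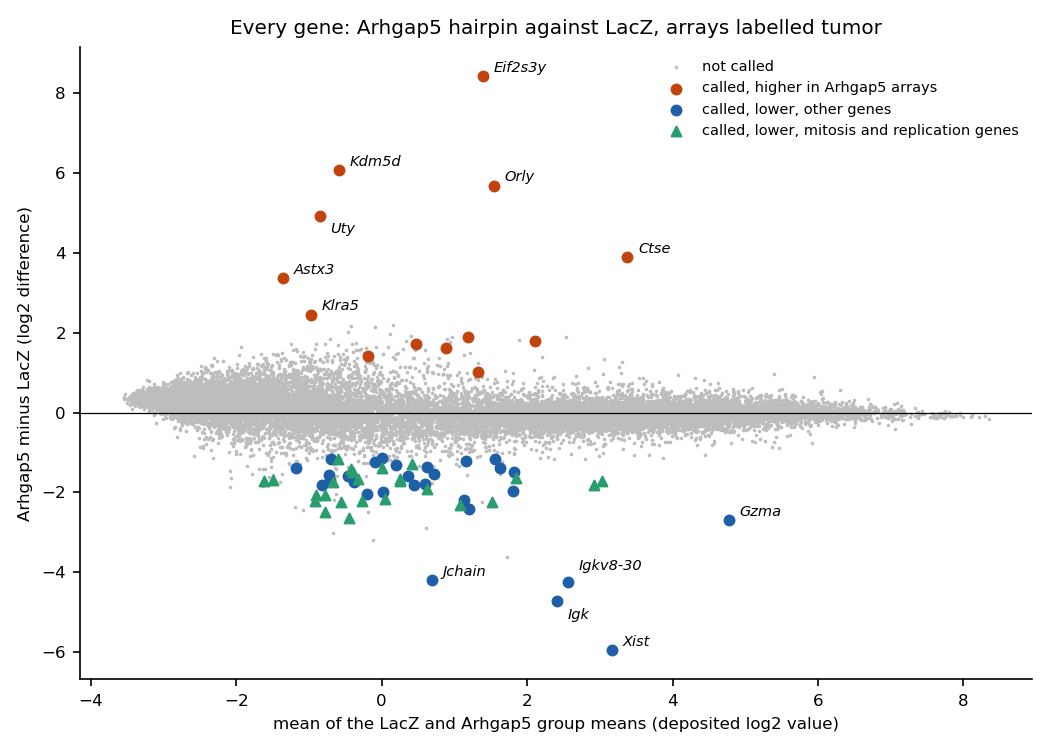
Each point is 1 gene, with the mean of the LacZ and Arhgap5 group means (deposited log2 value) on the x axis and the Arhgap5 minus LacZ log2 difference on the y axis; coloured points are the 67 called genes. Eif2s3y stands at 8.44 and Xist at -5.96, while the 25 mitosis and replication genes lie between -2.64 and -1.17.

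The largest differences of either sign belonged to genes of the sex chromosomes. Eif2s3y, a translation factor gene of the Y chromosome, read -2.64, -2.74 and -3.10 in the LacZ arrays and 5.69, 5.66 and 5.51 in the Arhgap5 arrays. It rose by 8.44 ± 0.41 (SE, adjusted p = 2.78e-15), and no other gene moved as far. The histone demethylase gene Kdm5d, also Y-linked, went from -3.97, -3.13 and -3.74 to 2.39, 2.76 and 2.21, a rise of 6.07 (adjusted p = 7.23e-10). Orly and Uty, the other called Y genes, rose by 5.69 and 4.92, so that 4 of the 9 measured Y genes were called. Xist, the RNA that silences one X chromosome in female cells, read 6.22, 5.99 and 6.25 against 1.12, -0.16 and -0.39. It fell by 5.96 ± 0.55 (SE, adjusted p = 2.16e-08), and its other probe sets gave differences of -7.58 and -6.71. Without Xist and the Y genes 62 genes were called.

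The sex-linked genes split the hairpins in the same way over all 18 arrays labelled tumor. Eif2s3y lay at 5.51 to 5.88 in the 6 Arhgap5 and Ptpn2 arrays and at -3.36 to -1.22 in the 12 LacZ, Ppp2r2d, Egr2 and Alk arrays. Xist lay at -1.05 to 3.20 in the first set and at 5.99 to 7.05 in the second. Among arrays labelled spleen, Eif2s3y kept this split, whereas Xist lay between, at 3.17 to 4.35, in the Arhgap5 and Ptpn2 arrays. The hairpin and the sex-linked pattern of the cells cannot be told apart in the comparison with LacZ. Against the Ptpn2 arrays, which carried the same Y pattern, Eif2s3y differed by -0.03 (adjusted p = 0.971), and the mitosis genes, Gzma, Ephx1 and Fhit below are therefore also set against Ptpn2. Ptpn2 array 1 stood apart: its Gapdh 3′ minus 5′ difference was 2.94, against 0.87 to 1.14 in the 6 arrays compared here, its best correlation with any other array was 0.905, and its median over T cell identity genes was 4.08. Without it, the differences from Ptpn2 were -0.07 for Eif2s3y, -3.96 for Gzma (adjusted p = 1.6e-06), -1.88 for Ephx1 (adjusted p = 4.81e-05) and -0.40 for Fhit (adjusted p = 0.82).

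Astx3, an X-linked gene of sperm development, followed the same division. It read -3.45, -2.83 and -2.85 in the LacZ arrays, -0.30, 1.29 and 0.00 in the Arhgap5 arrays and 0.53, -0.58 and 1.64 in the Ptpn2 arrays, and rose by 3.38 ± 0.53 (SE, adjusted p = 0.000476). The 12 arrays of the other hairpins lay at -3.73 to -1.18, below the Arhgap5 and Ptpn2 arrays. Under the spleen label the difference was -0.59 (adjusted p = 0.474), and the difference between the labels was 3.96 (adjusted p = 0.0067).

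**Figure D2:**
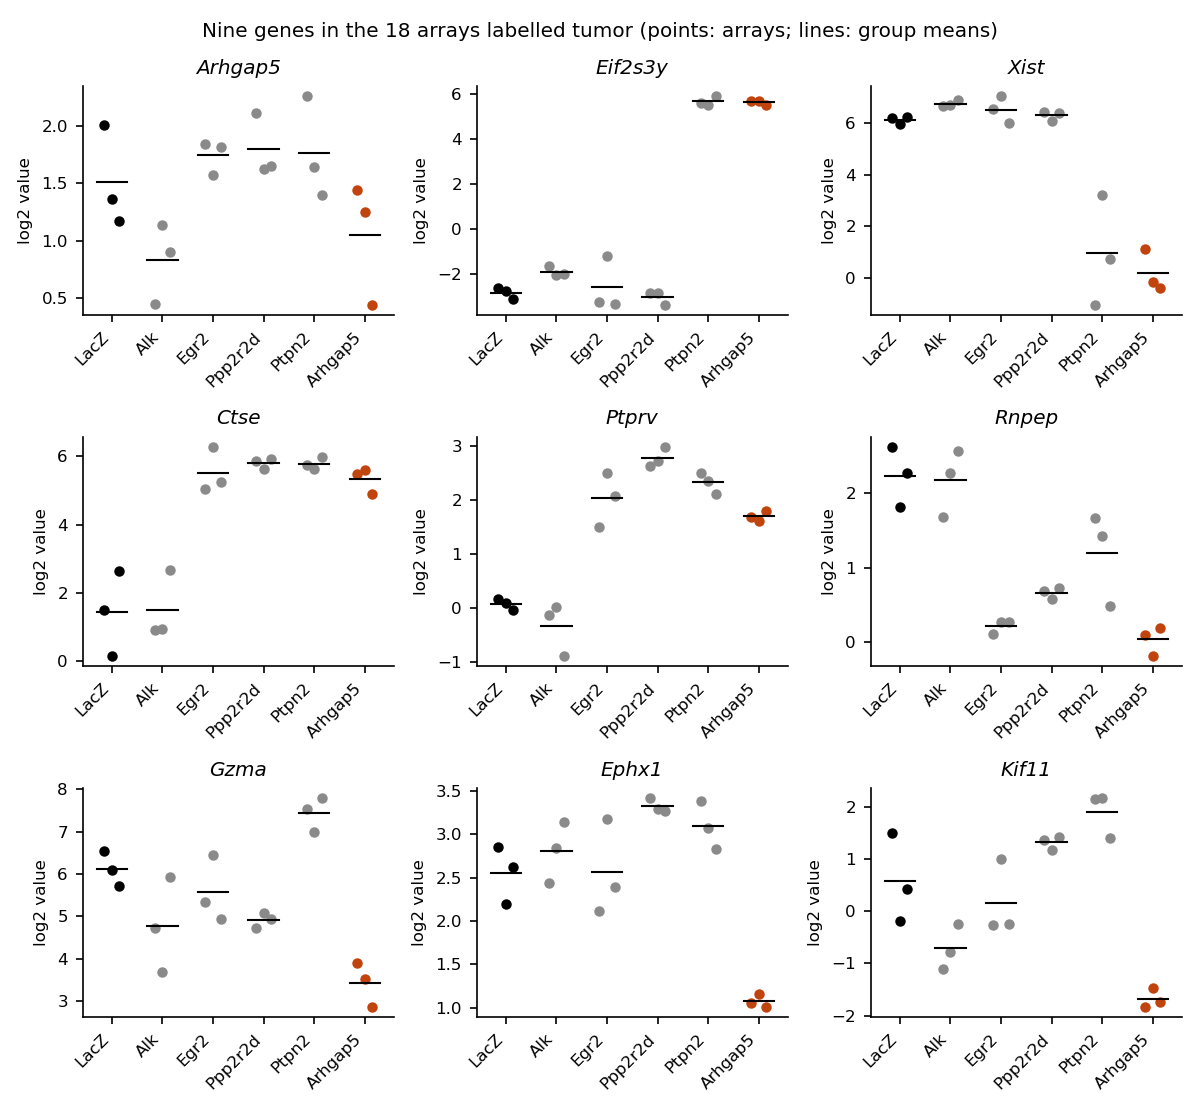
Log2 values of 9 genes in the 18 arrays labelled tumor, by hairpin; points are arrays, lines are group means of 3 arrays, and Arhgap5 is in red. Eif2s3y and Xist separate Arhgap5 and Ptpn2 from the rest, Ctse and Ptprv separate LacZ and Alk from the rest, and Ephx1 in the Arhgap5 arrays, at 1.01 to 1.15, lies below every other array.

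A second division placed LacZ with Alk. Ctse, which encodes the aspartic protease cathepsin E, read 1.50, 0.17 and 2.64 in the LacZ arrays and 5.50, 5.59 and 4.89 in the Arhgap5 arrays, a rise of 3.89 ± 0.43 (SE, adjusted p = 8.6e-07). The 12 arrays of Arhgap5, Ppp2r2d, Egr2 and Ptpn2 spanned 4.89 to 6.26, and the 6 of LacZ and Alk spanned 0.17 to 2.67, so Arhgap5 was not apart from the other 3. A further Ctse probe set gave -0.74 (adjusted p = 0.9997), opposite in sign. The receptor phosphatase gene Ptprv also rose, from 0.17, 0.09 and -0.03 to 1.68, 1.62 and 1.80, a rise of 1.62 (adjusted p = 0.00188), and its difference from the Ppp2r2d arrays was -1.08 (adjusted p = 0.0195). The aminopeptidase gene Rnpep ran the other way, from 2.62, 1.82 and 2.27 to 0.10, -0.18 and 0.19, a fall of 2.21 (adjusted p = 7.44e-05). All 3 genes lie on chromosome 1. The stretch from the first to the last holds 55 measured genes, of which these 3 were called. Its ends were set by these genes, so that count is a description, beside 0.368% called over all genes. Against the mean of the other 4 hairpins, Ctse differed by 0.67 (adjusted p = 0.594) and Ptprv by -0.00 (adjusted p = 0.997). Rnpep was called lower there, by -1.03 (adjusted p = 0.0261). Against Ptpn2 alone it differed by -1.16 (adjusted p = 0.0441), a call that was lost without Ptpn2 array 1 (-0.92, adjusted p = 0.357).

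The other 6 of the 13 rises ran from 1.02 to 2.46. Klra5, an inhibitory lectin-like receptor of NK cells and some T cells, went from -2.94, -1.84 and -1.81 to 0.83, 0.04 and -0.09, a rise of 2.46 (adjusted p = 6.16e-05). It rose by 1.96 under the spleen label as well (adjusted p = 0.000534), and its LacZ arrays labelled tumor were the lowest of the 18 but for 1 Ptpn2 array. Themis2, an adaptor of antigen receptor signalling best known in B cells, went from 0.27, -1.21 and -0.21 to 1.44, 1.21 and 1.36, a rise of 1.72 (adjusted p = 0.0312). Il1r1, the signalling receptor for interleukin-1, rose by 1.41 (adjusted p = 0.0484) but fell by 1.17 under the spleen label (adjusted p = 0.0247). The others were Cphx3 (1.88), Pxdc1 (1.79) and Itpripl2 (1.02). The call on Il1r1 was lost whichever of the 6 arrays was left out, those on Themis2, Cphx3 and Itpripl2 for 5 of the 6, and that on Pxdc1 for 2.

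Genes of mitosis and DNA replication made up 25 of the 54 falls, with differences from -2.64 to -1.17. This grouping was made after the calls were seen, from the known roles of the genes, and is a description. In arrays of a bulk population, fewer cells of a type and less RNA per cell cannot be told apart. The group held 9 genes of the kinetochore and spindle checkpoint, 6 of the spindle and its microtubules, 6 cyclins, kinases and regulators, and 4 of replication, chromosome structure and proliferation. All 25 kept their call after quantile normalization, where differences ran from -2.67 to -1.23. With the mean of each gene's probe sets 17 of the 25 kept their call, with differences from -2.13 to -0.66, as did 47 of all 67. The calls depended on single arrays: 6 and 14 of the 25 passed without LacZ array 1 or 3, and 8 and 17 without Arhgap5 array 1 or 3, although all 25 differences stayed negative each time.

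Among spindle genes, Kif11, the motor that pushes spindle poles apart, read 1.49, -0.20 and 0.43 in the LacZ arrays and -1.83, -1.48 and -1.73 in the Arhgap5 arrays. It fell by 2.25 ± 0.35 (SE, adjusted p = 0.000469), and every Arhgap5 array lay below all 15 other arrays labelled tumor. Further probe sets gave -1.46 and -0.30. Psrc1, a microtubule regulator, went from 1.65, 0.36 and 0.62 to -2.49, -0.92 and -1.89, a fall of 2.64 (adjusted p = 0.000365), and was the only 1 of the 25 also called against the Alk arrays (-2.58, adjusted p = 0.000724). Differences of -1.56 and 0.73 came from 2 further Psrc1 probe sets, and the mean of all 3 missed the threshold (-1.16, adjusted p = 0.179). Its Arhgap5 range overlapped those of the Egr2 and Ppp2r2d arrays, -2.33 to -0.36 and -0.97 to -0.54. Nusap1, Hmmr, Spag5 and Tpx2, which bind or organise spindle microtubules, fell by 2.31, 2.23, 1.72 and 1.67.

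At the kinetochore, where chromosomes attach to the spindle, Nuf2 went from 1.06, -0.39 and 0.08 to -2.37, -1.39 and -1.66, a fall of 2.06 (adjusted p = 0.000277). Bub1, a checkpoint kinase, went from 1.45, 0.31 and 0.76 to -2.60, -0.61 and -0.94, a fall of 2.22 (adjusted p = 0.00102), with Arhgap5 array 1 far below arrays 2 and 3. Its second probe set gave 0.43, of opposite sign, and the mean of both missed the threshold (-0.89, adjusted p = 0.524). Knl1, Ska1, Spc24, Cenpf and Cenpi are also kinetochore proteins, and they fell by 1.74, 1.71, 1.39, 1.69 and 1.41. Birc5, the survivin subunit of the chromosomal passenger complex, fell by 1.83, and Trip13, an ATPase that turns the checkpoint off, by 1.67.

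Of the regulators, Ccna2, the cyclin of S phase and mitotic entry, went from 3.26, 1.88 and 2.76 to -0.21, 0.66 and 0.73, a fall of 2.24 (adjusted p = 0.00558). Plk1, a mitotic kinase, was the tightest in both groups, at 0.14, -0.20 and 0.00 and -1.16, -1.18 and -1.24, and fell by 1.17 (adjusted p = 0.00886). The mitotic cyclin Ccnb2, the phosphatase Cdkn3, the ubiquitin-conjugating enzyme Ube2c and the kinase Melk fell by 1.92, 2.07, 1.65 and 1.48. Mcm10, a replication initiation factor, went from 1.00, -0.31 and 0.71 to -2.49, -1.59 and -1.97, a fall of 2.48 (adjusted p = 0.000151). The repressor E2f8 and the condensin subunit Ncaph fell by 2.17 and 1.29, and Mki67, the proliferation marker Ki-67, went from 4.22, 3.31 and 4.12 to 1.65, 2.67 and 2.21, a fall of 1.71 (adjusted p = 0.0401). In every one of these genes all LacZ arrays lay above all Arhgap5 arrays.

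**Figure D3:**
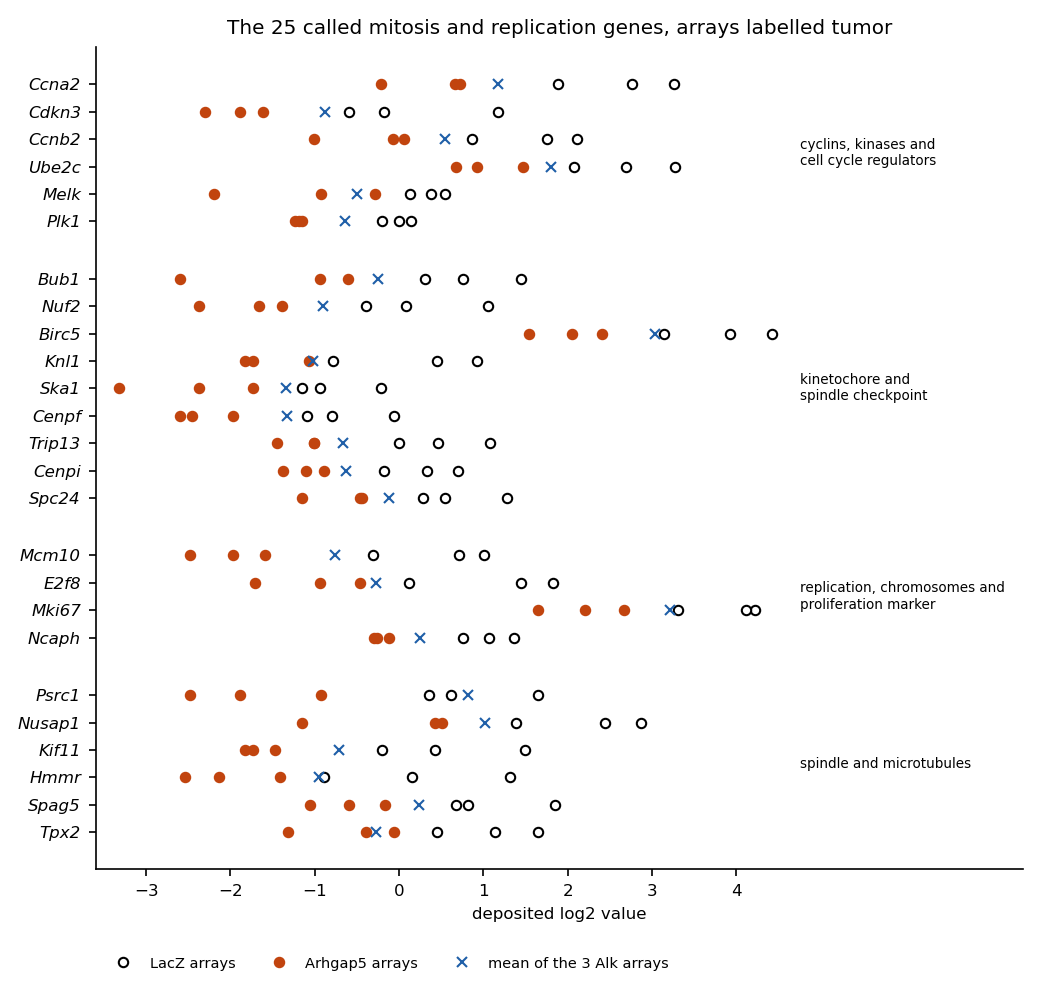
Log2 values of the 25 called mitosis and replication genes in each LacZ array (open circles) and Arhgap5 array (red), with the mean of the 3 Alk arrays (crosses), grouped by role; all are labelled tumor. The 2 groups do not overlap for any gene, and the Alk mean lies between the 2 group means in each.

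A list of known cell cycle genes, from which 8 of these genes come, leaned lower. The list was chosen with earlier results of these data known, so its counts are not independent of them. Of its 35 measured members 8 fell and none rose at the threshold, where 0.297% and 0.0715% of all genes did. A negative difference was seen in 33, and the median was -0.78, against 0.06 over all genes. After quantile normalization 10 fell, where 0.643% of all genes did, and the median was -0.70, against -0.00 over all genes. The list mean was 2.65, 1.72 and 2.34 in the LacZ arrays and 1.19, 1.59 and 1.32 in the Arhgap5 arrays, so the groups did not overlap and LacZ array 2 lay nearest. Without LacZ array 1 or 3, 2 and 3 members fell, and without Arhgap5 array 1 or 3, 2 and 4 fell. The median stayed between -0.91 and -0.63 whichever array was left out.

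Promoters of the 7 fallen list members with a RefSeq entry are shown because genes of late cell cycle stages are known to share CCAAT boxes and the CHR element, TTTGAA, near their start sites. The sequences are from RefSeq (GRCm38.p6), cover the 150 bases before the annotated start 5′ to 3′ on the gene's strand, and have TTTGAA and CCAAT, searched on both strands, in capitals (ATTGG and TTCAAA are the same motifs read on the other strand).
Kif11 (chr19:37376232-37376381, plus strand): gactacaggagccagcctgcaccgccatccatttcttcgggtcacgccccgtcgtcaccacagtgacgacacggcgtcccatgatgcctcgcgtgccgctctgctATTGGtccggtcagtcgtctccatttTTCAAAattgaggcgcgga
Ccnb2 (chr9:70421555-70421704, minus strand): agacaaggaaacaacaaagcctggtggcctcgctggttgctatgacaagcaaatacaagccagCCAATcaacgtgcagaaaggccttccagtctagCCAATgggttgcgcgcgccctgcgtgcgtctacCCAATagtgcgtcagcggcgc
Mki67 (chr7:135716380-135716529, minus strand): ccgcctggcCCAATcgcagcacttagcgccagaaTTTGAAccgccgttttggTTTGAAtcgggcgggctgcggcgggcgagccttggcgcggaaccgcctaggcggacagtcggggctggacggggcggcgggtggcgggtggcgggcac
Bub1 (chr2:127831860-127832009, minus strand): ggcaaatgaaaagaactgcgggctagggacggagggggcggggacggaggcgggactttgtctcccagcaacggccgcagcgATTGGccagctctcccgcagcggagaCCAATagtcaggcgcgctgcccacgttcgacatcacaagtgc
Cenpf (chr1:189688087-189688236, minus strand): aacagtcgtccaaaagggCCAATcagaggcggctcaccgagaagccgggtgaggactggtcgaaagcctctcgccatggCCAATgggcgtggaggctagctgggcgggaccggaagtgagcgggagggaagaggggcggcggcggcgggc
Plk1 (chr7:122159285-122159434, plus strand): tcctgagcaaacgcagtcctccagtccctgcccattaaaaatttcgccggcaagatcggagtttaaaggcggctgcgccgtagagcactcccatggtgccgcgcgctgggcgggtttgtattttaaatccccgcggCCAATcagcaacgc
Birc5 (chr11:117849087-117849236, plus strand): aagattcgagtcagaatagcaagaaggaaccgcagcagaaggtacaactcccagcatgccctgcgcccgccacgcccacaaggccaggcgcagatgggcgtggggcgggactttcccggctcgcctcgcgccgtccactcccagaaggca
Kif11 had 1 TTTGAA and 1 CCAAT, Ccnb2 had 3 CCAAT, Mki67 had 2 TTTGAA and 1 CCAAT, and Bub1 had 2 CCAAT. Cenpf had 2 CCAAT and Plk1 had 1, while Birc5 held neither motif. Of the 8 members that fell, 7 matched the promoter table, and 6 of them held a CCAAT and 2 a TTTGAA in this window. Of all 54 falls 38 matched, and 20 held a CCAAT and 9 a TTTGAA. Over 27025 promoters the shares were 25.3% for CCAAT and 9.24% for TTTGAA. A match is a description of letters and not of binding.

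The 25 mitosis and replication genes were then set against the other hairpins labelled tumor. They were chosen for low values in these same Arhgap5 arrays, so neither the signs nor the counts of the 25 are independent of that choice. In the comparison with the mean of the other 4 hairpins, which uses the same Arhgap5 arrays but no LacZ array, 24 of the 25 were called lower, where 127 of all genes were (0.698%) and 10 were higher (0.0550%). The median over all genes was -0.21 there, so most genes leaned lower, and after quantile normalization 38 genes were higher and 159 lower. Without Ptpn2 array 1, 23 of the 25 were called there (0.841%). Against Ptpn2 alone all 25 were called (1.23% of all genes were lower), and 23 without that array (0.874%). Of the 35 list members 1 was higher in Ptpn2 than in LacZ, and 11 were after quantile normalization. Of the 25, 23 were called against Ppp2r2d (3.29%), 10 against Egr2 (0.335%) and 1 against Alk (0.0660%). All 25 differences from Alk were negative, 16 of them at an unadjusted p under 0.05. Over all genes the median difference from Alk was -0.32, so most genes leaned lower there too. Of the 18193 genes, 1821 reached that p in either direction (limma). Of the 35 list members, 16 were lower than in Ptpn2, 12 than in Ppp2r2d, 4 than in Egr2 and 0 than in Alk (limma). Against Alk, 11 were lower at an unadjusted p under 0.05, and the median was -0.49, against -0.32 over all genes. After quantile normalization the list median against Alk was -0.31, against -0.01 over all genes. The list mean of the Alk arrays, 1.58 to 2.24, overlapped that of the Arhgap5 arrays, so a difference from Alk was not shown. Without Arhgap5 array 1, 2 or 3, 49, 80 and 65 genes differed from the other 4 hairpins.

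Beside LacZ itself, the other hairpins gave list medians of 0.09 for Ppp2r2d, -0.05 for Egr2, 0.39 for Ptpn2 and -0.38 for Alk. In the same order, the medians over all genes were 0.09, 0.29, 0.24 and 0.33. The list thus lay below all genes in Egr2 and Alk as well. After quantile normalization the list medians were -0.05, -0.31, 0.51 and -0.32, against 0.02, 0.01, 0.02 and -0.01 over all genes. These comparisons share the 3 LacZ arrays with that of Arhgap5. After quantile normalization 0 members were lower in Arhgap5 than in Alk and 22 were lower than in Ptpn2.

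**Figure D4:**
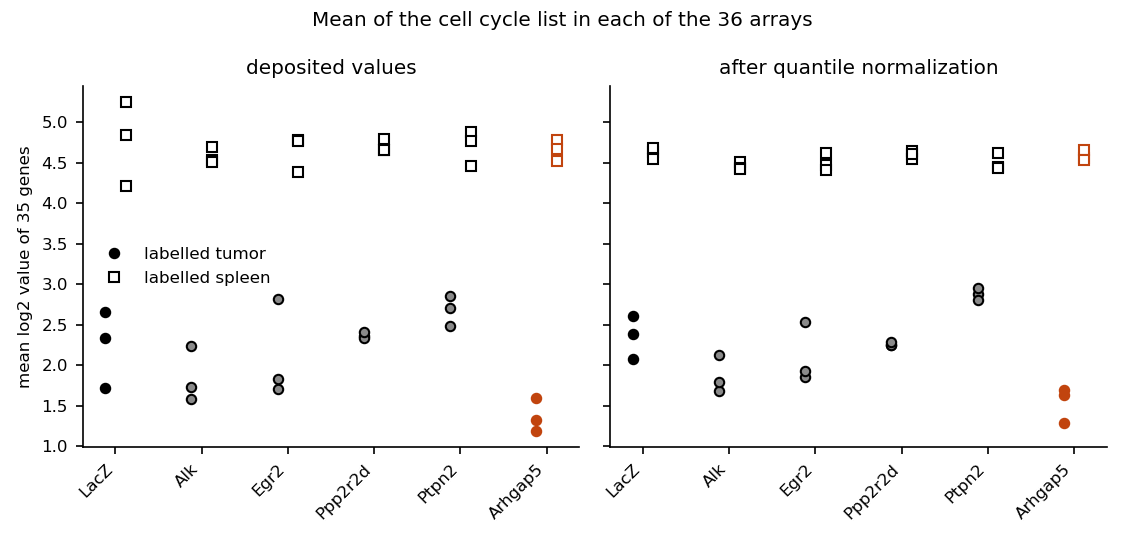
Mean log2 value of the 35 measured cell cycle genes in each of the 36 arrays, by hairpin, in the deposited values (left) and after quantile normalization (right); filled circles are labelled tumor and open squares labelled spleen. The Arhgap5 arrays labelled tumor lie at 1.19 to 1.59, beside the lowest Alk array at 1.58, and all arrays labelled spleen lie at 4.21 to 5.24.

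In arrays labelled spleen the mitosis genes were not called. There 0 of the 25 differed between Arhgap5 and LacZ (limma; 2 at an unadjusted p under 0.05), where 8.89% of all genes did, and the differences ran from -0.92 to 0.65. The difference between the labels was itself called for 15 of the 25, all negative, where 2.82% of all genes were called and 0.824% negative. The 25 were chosen on the tumor-label difference, which is a term of it, so neither the sign nor the count is independent of that choice. For Kif11 it was -2.61 (adjusted p = 0.0067), for Nuf2 -2.61 (adjusted p = 0.00311) and for Psrc1 -2.93 (adjusted p = 0.00821). For Ccna2 and Bub1 it missed the threshold (adjusted p = 0.0727 and 0.0761). The median over all genes was 0.21, so most genes leaned the other way. The count of 513 genes behind this comparison, 363 higher and 150 lower, was 47, 2001 and 132 without LacZ array 1, 2 or 3 labelled tumor, and 92 and 124 without Arhgap5 array 2 or 3. Without LacZ array 2 labelled spleen it was 252, and without Arhgap5 array 1, 2 or 3 labelled spleen 268, 107 and 68. After quantile normalization it was 432, 167 higher and 265 lower, and with array medians centred 860 were higher and 94 lower.

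Markers of red cell precursors, which also divide, had a mean level of 1.09, 0.99 and 2.66 in the LacZ arrays and 0.30, 0.76 and 0.57 in the Arhgap5 arrays. The groups did not overlap, and LacZ array 3 was the highest. None of the 8 measured markers passed the threshold against LacZ (limma). There 3 were lower at an unadjusted p under 0.05, and 2 had a positive difference. Car1, a carbonic anhydrase of red cells, averaged 1.48 ± 1.77 and -1.72 ± 0.66 (SD, n = 3 each), with a difference of -3.20 (adjusted p = 0.187). Against the mean of Ppp2r2d, Egr2, Ptpn2 and Alk, Car1 was called lower (-2.83, adjusted p = 0.045), the only 1 of the 8 markers. It was also called lower than Egr2 alone (-5.27, adjusted p = 0.00291). Its differences from Ppp2r2d (-2.53), Ptpn2 (-1.43) and Alk (-2.09) missed the threshold (adjusted p = 0.0833, 0.458 and 0.469). Slc4a1, the band 3 anion exchanger, averaged 1.05 ± 2.21 and -1.43 ± 0.76. The alpha globin gene Hba-a2 differed by 0.06 (adjusted p = 1). The part of such cells in the falls was not tested. The T cell identity list, in contrast, had means of 5.68 to 6.07 and 5.72 to 5.93, which overlapped.

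Gzma, which encodes granzyme A, a protease of cytotoxic granules, had the largest fall of the cytotoxic genes. It read 6.54, 6.10 and 5.72 in the LacZ arrays and 3.90, 3.52 and 2.87 in the Arhgap5 arrays, a fall of 2.69 ± 0.39 (SE, adjusted p = 0.000229). Under the spleen label it fell by 2.75 (adjusted p = 6.52e-05), and the difference between the labels was 0.05 (adjusted p = 0.97). Against Ptpn2, whose arrays held the highest values at 6.99 to 7.78, the difference was -4.01, and against Alk, whose range of 3.69 to 5.93 overlapped that of Arhgap5, it was -1.35 (adjusted p = 0.469). Gzma was the only 1 of 25 cytotoxic effector genes called, and the list median was -0.02. After quantile normalization Gzmb also fell, by 1.15 (adjusted p = 0.000624), while Fasl, the death ligand, and the receptor gene Klrc1 rose by 1.39 and 0.83.

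Havcr2, which encodes the inhibitory receptor TIM-3, went from 0.42, -0.51 and 0.25 to -1.10, -1.45 and -1.97, a fall of 1.56 (adjusted p = 0.0163). It was the only 1 of 19 inhibitory receptor and exhaustion genes called against LacZ, with a list median of -0.18. Against the mean of the other 4 hairpins, 5 of the 19 were called lower, where 0.698% of all genes were. Havcr2 differed from Ptpn2 by -2.98 (adjusted p = 2.7e-07). Its differences from Ppp2r2d (-0.62), Egr2 (-0.80) and Alk (-0.38) missed the threshold (adjusted p = 0.2435, 0.4878 and 0.5953). The call against LacZ was lost without LacZ array 1 or 3, or Arhgap5 array 2 or 3. Lif, a cytokine of the interleukin-6 family, went from 0.45, 1.14 and 1.45 to -1.65, -0.39 and -0.89, a fall of 1.99 (adjusted p = 0.00193). The mean of its probe sets missed the threshold (-1.09, adjusted p = 0.15), as did its difference from the other 4 hairpins (-0.65, adjusted p = 0.478), all of which had means below LacZ. Of the 20 members of the cytokine and chemokine list 0 were called in the deposited values (limma; 4 at an unadjusted p under 0.05), and Ifng and Xcl1 fell by 0.79 and 0.66 after quantile normalization (adjusted p = 0.00073 and 0.0243). Ccr2, a chemokine receptor, rose by 0.95 there (adjusted p = 0.0366).

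Interferon-induced genes leaned down, with few calls. Ifit1, a sensor of viral RNA, went from 2.93, 2.57 and 2.86 to 0.77, 0.96 and 0.71, a fall of 1.97 (adjusted p = 0.00212), and was the only 1 of 25 interferon response genes called, although 22 had a negative difference and the median was -0.27. The Arhgap5 arrays lay within the range of the Alk and Ptpn2 arrays, 0.55 to 1.40 and 0.24 to 1.57. Ifitm1, a membrane protein that restricts virus entry, went from 3.38, 1.86 and 1.95 to -0.10, -0.28 and 0.36, a fall of 2.41 (adjusted p = 0.00112), and was not on the list. The Ppp2r2d arrays were also below LacZ, by 1.94 (limma, adjusted p = 0.01). Arhgap5 differed from Ppp2r2d by -0.47 (adjusted p = 0.446) and from Alk by -0.83 (adjusted p = 0.469). It was called lower than Egr2 (-1.75, adjusted p = 0.0401) and Ptpn2 (-5.04, adjusted p = 9.54e-10), and Ptpn2 lay above LacZ by 2.64.

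Ephx1 was the single gene called in 1 direction against LacZ and against each of the other 4 hairpins. It encodes microsomal epoxide hydrolase, an enzyme that detoxifies reactive epoxides. It read 2.85, 2.19 and 2.62 in the LacZ arrays and 1.06, 1.15 and 1.01 in the Arhgap5 arrays, a fall of 1.48 ± 0.25 (SE, adjusted p = 0.00129). All 15 other arrays labelled tumor lay at 2.11 or above. The differences were -2.25 from Ppp2r2d, -1.48 from Egr2, -2.02 from Ptpn2 and -1.73 from Alk, with adjusted p values of 9.3e-07, 0.00291, 2.35e-06 and 0.000164. Under the spleen label it differed from LacZ by 0.40 (adjusted p = 0.281), and the labels differed by -1.88 (adjusted p = 0.00669). After quantile normalization Abca3, Cmtm7, P2rx4 and Prr11 were also lower than all 5 groups and Uty was higher.

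Immunoglobulin genes gave the deepest falls after Xist. Jchain, which joins immunoglobulin M and A into polymers in plasma cells, went from 2.01, 3.12 and 3.25 to -1.48, -1.06 and -1.66, a fall of 4.19 ± 0.81 (SE, adjusted p = 0.00722), and fell under the spleen label too (adjusted p = 0.00211). The kappa light chain entry Igk went from 3.55, 5.14 and 5.64 to -0.63, 2.48 and -1.66, with Arhgap5 array 2 well above arrays 1 and 3. It fell by 4.72 ± 1.07 (adjusted p = 0.0393), but 2 of its other 3 probe sets gave small positive differences, and the mean of all missed the threshold (adjusted p = 0.608). Igkv8-30 fell by 4.26 (adjusted p = 0.0366). The calls on Igk and Igkv8-30 were each lost for 5 of the 6 arrays when left out, and that on Jchain for 3. Kappa chain genes are closely alike, so their probe sets may share signal. The other 11 of 12 measured B cell markers were not called, and the list mean of -0.57 to 0.16 in LacZ arrays overlapped that of -0.34 to 0.01. Cd79a averaged -0.66 ± 0.52 and -0.23 ± 0.40, and Ms4a1 -2.18 ± 0.98 and -1.91 ± 0.75 (SD, n = 3 each).

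Single genes of other functions also fell. Fhit, a hydrolase and tumor suppressor gene, went from 0.83, 0.28 and 1.33 to -0.63, -1.67 and -1.37, a fall of 2.04 (adjusted p = 0.000735), but the range of the Ptpn2 arrays, -1.16 to -0.59, overlapped that of Arhgap5. The metal-binding protein gene Mt1 fell by 1.78 (adjusted p = 0.0104), while its paralog Mt2 differed by -2.25 (adjusted p = 0.0855) and passed after quantile normalization. Prr11, known for a role in cell cycle progression, went from 0.94, 0.33 and 0.21 to -1.06, -1.42 and -1.24, a fall of 1.73 (adjusted p = 0.000277). Exo1, a DNA repair exonuclease, and Shcbp1, a protein of dividing cells, fell by 1.59 each. Fads1, a fatty acid desaturase, and Lman1, a cargo receptor of the early secretory pathway, fell by 1.25 and 1.17, and under the spleen label by 1.51 and 1.76. Slc40a1, the iron exporter ferroportin, fell by 1.38, and was the 1 gene of the 67 that missed the threshold after quantile normalization (adjusted p = 0.0799). Cd24a, a surface glycoprotein of immature blood cells, missed the threshold with -3.62 (adjusted p = 0.0706). After quantile normalization it fell by 3.71 (adjusted p = 0.022).

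Arhgap19, which like Arhgap5 encodes a GTPase-activating protein, went from 1.29, 0.38 and 0.90 to -0.30, -0.69 and -0.39, a fall of 1.31 (adjusted p = 0.0278). Its call was lost for 5 of the 6 arrays when left out, and the mean of its probe sets missed the threshold (-0.44, adjusted p = 0.998). Of 26 SRF and MRTF target genes, which respond to actin assembly, and 35 integrin and focal adhesion genes, 0 were called by limma (1 at an unadjusted p under 0.05), where 0.368% of all genes were. Their medians were 0.02 and -0.01.

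**Figure D5:**
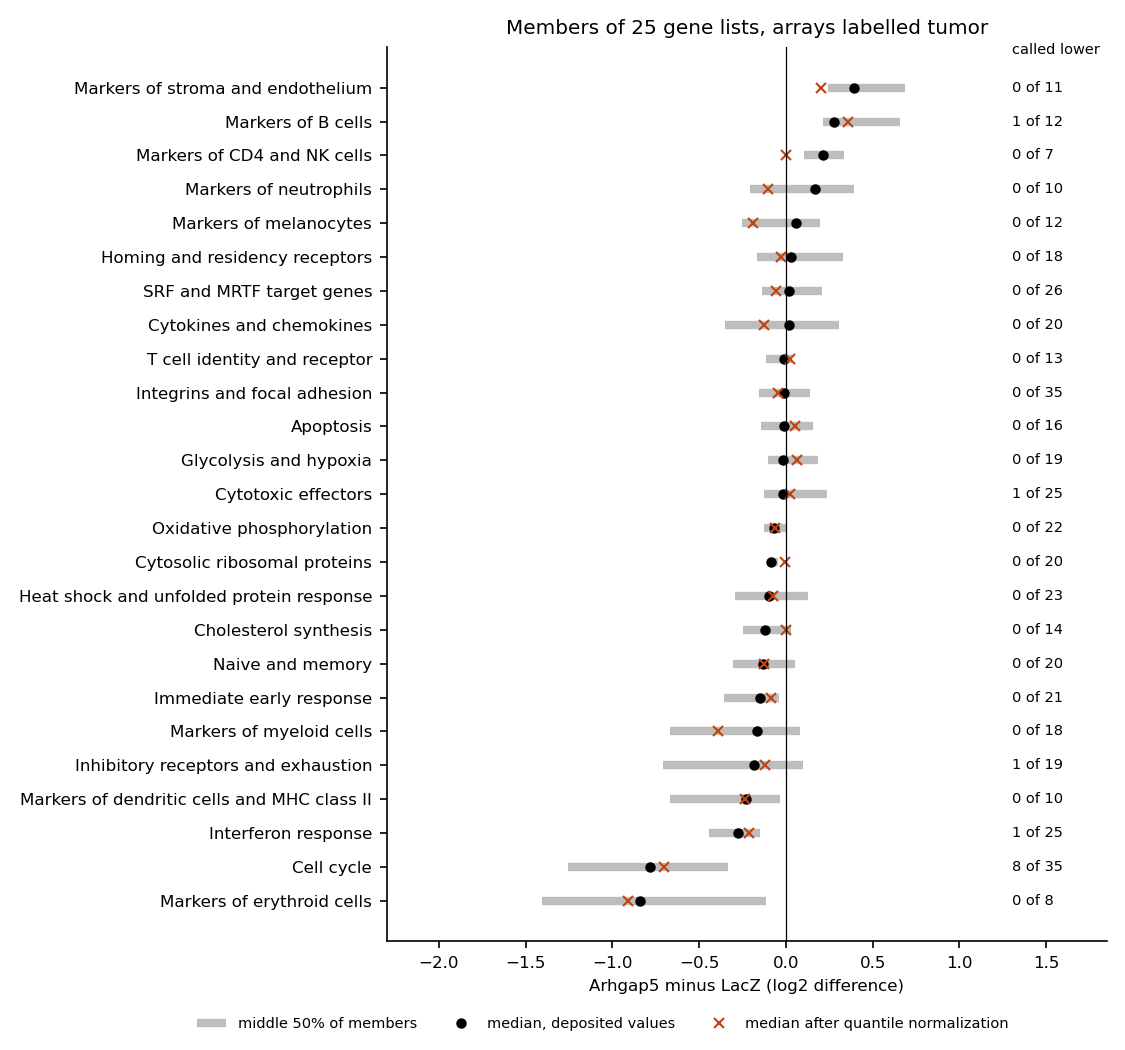
Median Arhgap5 minus LacZ log2 difference over the measured members of each of 25 gene lists, in the deposited values (dots) and after quantile normalization (crosses), with bars for the middle 50% of members; the number at right is how many members were called lower. The cell cycle list stands at -0.78 with 8 of 35 called, and the integrin and focal adhesion list at -0.01 with 0 of 35.

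Of 8 lists of T cell state with 152 members, 0 members were called by limma and 7 reached an unadjusted p under 0.05. Over all genes 0.368% were called and 4.55% reached that p, so these counts lay near the shares of all genes. The lists held 20 naive and memory genes, 18 homing and residency receptors, 21 immediate early genes, 16 apoptosis genes, 19 glycolysis and hypoxia genes, 22 of oxidative phosphorylation, 14 of cholesterol synthesis and 23 of heat shock and unfolded protein responses. Their medians lay between -0.15 and 0.03. Egr3, a transcription factor induced by receptor signalling, differed by -1.15 (adjusted p = 0.43), and Klf2, which promotes homing to lymphoid tissue, by -0.76 (adjusted p = 0.97). All 20 measured ribosomal protein genes had a negative difference in the deposited values, with a median of -0.09, which was -0.01 after quantile normalization. Further marker lists without a called member were those of melanocytes, myeloid cells, neutrophils, dendritic cells, stroma and CD4 or NK cells. Of their 68 members 4 reached an unadjusted p under 0.05 (limma), where 4.55% of all genes did. Tyrp1 averaged -2.55 ± 0.23 and -2.13 ± 0.08 (SD, n = 3 each).

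Over all 67 genes, 32 had a called difference between the tissue labels, where 2.82% of all genes did, and 31 of these went in the direction seen under the tumor label. The choice of the 67 genes on the tumor-label difference sets that direction in part. Under the spleen label, where 8.89% of all genes were called, 16 were called in the same direction and 2, Il1r1 and Acoxl, in the opposite one. Of the rises 6 of 13, and of the falls 43 of 54, were also called against the mean of the other 4 hairpins. Over all genes 0.0550% were called higher there and 0.698% lower. The 67 were chosen on the same Arhgap5 arrays, which sets this overlap in part. Gzmm, another granzyme gene, had a difference between labels of -3.05 (adjusted p = 0.000313) with -0.12 under the tumor label and 2.92 under the spleen label. Of the 67 genes, 35 had further probe sets: in 12 another set was also called in the same direction, and in 12 at least 1 had the opposite sign, none of them called.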

How the data were processed

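CD8 T cells were profiled on 36 Affymetrix mouse arrays, 3 for each of 6 hairpins and 2 tissue labels; groups follow the labels. The deposited values are on a log2 scale and were made with RMA, per the submitters' processing notes; version, background step and centring were not given in the sources used here. Array medians lie below 0. Arrays give no depth: their number limits the precision.

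Of 45101 probe sets, 34945 had 1 gene symbol in the platform annotation, and each of 18193 genes was represented by its brightest probe set on average across the 36 arrays; 932 with several symbols and 9160 without an entry were not used. Group means were fitted to all 12 groups with limma 3.58.1 in R 4.3.3 (24 residual degrees of freedom, 6.75 prior), with Benjamini-Hochberg adjustment over all genes and calls at 0.05. Further comparisons set Arhgap5 against the other 4 hairpins and subtracted the difference under the spleen label. The fit was tested on simulated data. Alternatives were quantile and cyclic loess normalization, centring, scaling, filters, probe set means, array weights, other sets of arrays, a replicate block and leaving out arrays. Named genes were up to 10 called rises and falls with groups apart (also after quantile normalization), 5 per direction in the other comparisons, 4 called members of a list or else 2 of largest difference, and the targets; Ephx1, the remaining mitosis genes and other genes outside this rule were chosen after their values were seen. The members and lists were chosen with earlier results of these data known. Some gene lists are not reported here.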

Additional observations from a re-analysis of the deposited data

Results flagged for a closer look

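For 32 of the 67 genes, and for Gzmm and Klrc1, the difference from LacZ itself differed between the tissue labels (limma, adjusted p under 0.05, from 0.000313 to 0.046). Each value below is the difference under the tumor label minus that under the spleen label. The 32 were chosen on the tumor-label difference, so the direction is not independent of that choice. Among 15 mitosis and replication genes it was -2.06 for Ccnb2, -2.40 for Cdkn3, -2.32 for Hmmr, -2.61 for Kif11, -1.68 for Knl1, -2.42 for Mcm10, -1.85 for Melk, -2.61 for Nuf2, -2.12 for Nusap1, -1.82 for Plk1, -2.93 for Psrc1, -2.25 for Ska1, -2.10 for Spag5, -1.52 for Spc24 and -1.78 for Tpx2. Under the spleen label these 15 differed from LacZ by -0.19 to 0.65, and none was called there. Among other falls it was -2.09 for Acoxl, -1.89 for Cd93, -2.23 for Cxxc5, -1.88 for Ephx1, -2.90 for Fhit, -2.11 for Pdlim4, -1.42 for Prr11, -1.54 for Shcbp1 and -2.01 for Slc40a1. It was -3.29 for Ifitm1 and -2.08 for Ifit1, which differed by 0.88 and 0.11 under the spleen label. It was 3.96 for Astx3, 2.60 for Cphx3 and 2.58 for Il1r1, which differed by -0.59, -0.72 and -1.17 there. Ctse, Orly and Xist differed from LacZ in 1 direction under both labels: Ctse by 3.89 and 6.06, so that the labels differed by -2.17, Orly by 5.69 and 2.52 (3.17), and Xist by -5.96 and -3.02 (-2.94). For Gzmm it was -3.05 and for Klrc1 1.55, with -0.12 and 0.81 under the tumor label, neither called there.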

How the results depend on the processing

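The 67 genes called against LacZ became 169 after quantile normalization, 170 after cyclic loess, 182 after quantile normalization with a filter on low values, 14 with only the groups compared, 20 with only arrays labelled tumor, 2798 with array weights and, as an alternative chosen after seeing the data, 4 with median absolute deviations made equal. Array weights ran from 0.0645 to 57.96, and median absolute deviations from 0.81 to 2.65; the causes of the other shifts were not tested. Leaving out single arrays gave 27 to 194. Against the other 4 hairpins the 137 genes became 216 (quantile and filter), 38 (only those groups), 39 (only labelled tumor) and 243 (array weights), and 49 to 80 without single arrays. The 513 genes of the tissue difference became 954 with array medians centred, 55 with only those groups and 5074 with array weights, and 47 to 2001 without single arrays. The 8 cell cycle members that fell became 4 with Egr2 in place of LacZ, 16 with Ptpn2 (22 after quantile normalization) and 0 with Alk (0 after quantile normalization), and 2 to 11 without single arrays. Replicate numbers did not pair the arrays: deviations of same-numbered LacZ and Arhgap5 arrays correlated at 0.52, 0.34 and -0.22, and with a replicate block 56, 122 and 401 genes were called in the 3 comparisons and the Arhgap5 difference was -0.47. The Arhgap5 difference stayed negative and uncalled under all its alternatives, from -0.67 to -0.09. Over 552 checks of 69 single genes 191 lost a call, 4 gained one and 0 reversed. In the Arhgap5 arrays 42 of the 54 falls lay in the lower 50% of genes, where signal over background limits the size of a difference.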
